A study of Homo sapiens with 6 samples.

Results

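A set of 54 genes of mitosis and of the step from G2 into mitosis was followed by RNA sequencing in SW480, a cell line established from a human colorectal adenocarcinoma. The 54 genes were listed by name for their known roles (cyclins and their kinase, mitotic kinases, spindle checkpoint, anaphase, kinesins, kinetochore, spindle, cytokinesis and mitotic transcription), and all 54 were found among the 63677 identifiers of the count tables. The 2 groups were SW480 cells transduced with a vector for GFP, the control, and SW480 cells transduced with a vector for POU5F1B, a retrogene paralog of the pluripotency gene POU5F1, with 3 libraries each. In both groups the transgene sat behind a doxycycline-inducible promoter, and all cells had been in 1 µg/mL doxycycline for 72 h, so that the control shares the drug and the vector type. Per the study's methods the vectors were delivered by lentivirus and transduced cells were selected with puromycin. The study describes both GFP and POU5F1B in SW480 cells as HA-tagged. The sources do not say that the replicates were separate cultures, so p-values here measure only the spread between these libraries, which may be technical.

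A cell enters mitosis when cyclin B bound to the kinase CDK1 is switched on by the CDC25 phosphatases. The Aurora and Polo-like kinases then build the spindle, kinesins move chromosomes along it, and the kinetochore ties each centromere to microtubules. The spindle checkpoint holds cells until every kinetochore is attached, after which CDC20 and the anaphase-promoting complex mark cyclin B and securin for destruction and the cell divides. Most of these genes are transcribed late in the cell cycle, under the DREAM and MuvB complexes with the factors B-MYB (MYBL2) and FOXM1, so their summed RNA is often read as a measure of proliferation. In bulk RNA, fewer cells in G2 and mitosis and less of a transcript per cell cannot be told apart.

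The promoters of 4 members are shown because this group of genes is known to be regulated through 2 short elements, the cell cycle homology region (CHR) and the CCAAT box bound by NF-Y, which the 4 stretches hold in different numbers. Each line holds the 250 bases before the transcription start on the plus strand, from the RefSeq promoter table (GRCh38.p14), at chr5:69166900-69167149 for CCNB1, chr15:59104896-59105145 for CCNB2, chr1:43358731-43358980 for CDC20 and chr16:23678639-23678888 for PLK1. Capitals mark matches on either strand to the letters TTTGAA of the CHR element, or to its variant form TTCGAA. Capitals also mark the CCAAT box on either strand.
CCNB1: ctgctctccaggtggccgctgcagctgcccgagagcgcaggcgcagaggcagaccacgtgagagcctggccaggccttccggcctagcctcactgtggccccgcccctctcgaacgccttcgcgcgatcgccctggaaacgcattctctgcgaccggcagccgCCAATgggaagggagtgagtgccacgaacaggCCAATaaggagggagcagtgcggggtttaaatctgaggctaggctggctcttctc
CCNB2: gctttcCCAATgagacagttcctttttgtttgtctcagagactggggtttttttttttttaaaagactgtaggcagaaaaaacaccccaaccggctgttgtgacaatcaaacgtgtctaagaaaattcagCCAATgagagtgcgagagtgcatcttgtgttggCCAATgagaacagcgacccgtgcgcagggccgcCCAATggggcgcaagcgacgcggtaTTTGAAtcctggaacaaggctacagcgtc
CDC20: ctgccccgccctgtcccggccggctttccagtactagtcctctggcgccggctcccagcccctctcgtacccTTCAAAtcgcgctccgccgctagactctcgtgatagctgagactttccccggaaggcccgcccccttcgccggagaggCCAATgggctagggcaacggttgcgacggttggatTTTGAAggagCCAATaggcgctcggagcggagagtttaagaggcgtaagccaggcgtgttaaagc
PLK1: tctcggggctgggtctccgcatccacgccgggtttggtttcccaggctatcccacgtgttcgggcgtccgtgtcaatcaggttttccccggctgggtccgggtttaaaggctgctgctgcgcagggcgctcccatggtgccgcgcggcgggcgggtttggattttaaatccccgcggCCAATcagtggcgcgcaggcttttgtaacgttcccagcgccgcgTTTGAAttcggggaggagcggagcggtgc
The CCNB2 stretch held 1 match to the CHR letters and 4 to CCAAT, the CDC20 stretch 2 and 2, and the PLK1 stretch 1 and 1. The CHR match of CCNB2 and that of PLK1 both began at position -29 from the start. The CCNB1 stretch held 2 CCAAT matches and 0 matches to the CHR letters, which says only that these letters are not in this window.

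Of the 54 genes, 46 had a promoter in the table, and motifs were searched on both strands in the whole 300 bases that the table gives, from 250 before the start to 50 after it. The CHR letters (TTTGAA or TTCGAA) occurred in 34 of the 46 member promoters (73.9%), against 19.5% of the promoters of all 27305 genes in the table. CCAAT occurred in 37 (80.4%, against 39.7%), at least 2 CCAAT in 24 (52.2%, against 12.9%), and both elements together in 28 (60.9%, against 7.85%). Matches were counted separately for each motif, also where 2 motifs share a base. The promoters therefore shared sequence that the choice of the genes did not use. The 34 genes with the CHR letters had a median log2 fold change of -0.12 between POU5F1B and GFP cells, with 16 of them higher in POU5F1B cells, and the 12 genes without them had a median of 0.028, with 8 higher. With replicates 1 and 2 alone the medians were 0.22 with the CHR letters and 0.15 without them, so that the sign and the order depended on the replicate 3 libraries. This split is a description and was not tested.

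The labels were checked on POU5F1B (ENSG00000212993). The GFP libraries held 6, 5 and 1 reads of it and the POU5F1B libraries 15027, 11393 and 1458, in order of replicate number, a mean of 0.324 ± 0.215 against 786 ± 579 CPM (SD, n = 3). CPM, the usual unit of such levels, is a count relative to its library size, which was scaled by TMM. POU5F1B replicate 3 held the transgene at 121 CPM, far below the 1182 and 1056 CPM of replicates 1 and 2. The fitted log2 fold change was 10.73 ± 2.78 (SE), with an adjusted p of 0.252 by limma over all tested genes.

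Libraries held between 10767947 and 12787637 counts. Over all genes, GFP replicate 3 stood apart from the rest. The biological coefficient of variation between it and GFP replicates 1 and 2 was 44.2% and 41.0%, against 8.15% between those 2, 9.83% between POU5F1B replicates 1 and 2, and 21.2% and 24.2% between POU5F1B replicate 3 and its group. Mitochondrial transcripts took 8.62% of its counts (95% Wilson interval 8.60 to 8.63%, counting error only), against 6.95 to 7.49% in the other libraries. The main results are therefore given with all 6 libraries and also with replicates 1 and 2 alone. The epithelial keratins KRT8 and KRT18 lay between 2917 and 4251 CPM in every library, while EPCAM was at 86.8, 89.4 and 519 CPM in GFP and 320, 331 and 252 CPM in POU5F1B libraries. CDH1, E-cadherin, was at 33.7, 30.2 and 72.7 against 164, 159 and 98.3 CPM, and KRT19 at 342, 299 and 593 against 571, 493 and 436 CPM, so that all 5 epithelial markers were lowest in GFP replicates 1 and 2. Of 9 markers of other cell types, 5 stayed at or below 0.25 CPM everywhere, and the summed level of all but VIM was 24.5 to 172 CPM in GFP and 13.4 to 22.4 CPM in POU5F1B libraries. Most of that sum was COL1A1 in GFP replicates 1 and 2, at 142 and 118 CPM, and the part of these markers in the results was not tested.

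With all 6 libraries, none of the 54 genes differed between POU5F1B and GFP cells by the limits of the study, an adjusted p under 0.05 and a fold change above 2 (limma voom, Benjamini-Hochberg over 14286 tested genes). The same 0% held for all tested genes, and all 54 members had passed the filter on low counts. At an unadjusted p under 0.05, 8 members (14.8%) were higher in POU5F1B cells, against 6.07% of all tested genes, and 0 were lower, against 5.82%. By adjusted p alone, 0 members were called by limma, 0 by the quasi-likelihood test of edgeR and 1 by DESeq2, which was CDC20 and was higher, against 1.3% of all tested genes called higher by DESeq2. The smallest adjusted p of a member with limma was 0.285.

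The direction of the set was mixed. A fold change above 0 was found for 31 of the 54 genes (57.4%, against 46.9% of all tested genes), with a median log2 fold change of 0.040, against -0.023 over all tested genes. Values ran from -1.24 for KIF18A to 0.52 for CDCA8. In 10 members (18.5%) every POU5F1B library lay above every GFP library, against 10.2% of all tested genes. In 0 members did every POU5F1B library lie below, against 9.24%. The 10 genes without overlap were CCNB1, CCNB2, AURKA, BUB3, CDC20, UBE2C, CDCA8, SPC24, TPX2 and RACGAP1, so that the higher genes belonged to several roles.

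With replicates 1 and 2 alone, 46 of the 54 genes were higher in POU5F1B cells, and the median log2 fold change was 0.24, against -0.005 over all tested genes. At an adjusted p under 0.05, 19 members rose (35.2%, against 14.1% of all tested genes) and 2 fell (3.70%, against 15.5%). The 2 that fell were MYBL2 and CDC25B. Only ANLN, named here after its values were seen, also passed the 2-fold limit, with a log2 fold change of 1.10 ± 0.10 (SE, n = 2 per group). Of all tested genes, 3.21% passed both limits upwards in the same fit. This fit leaves out POU5F1B replicate 3 as well as GFP replicate 3. Without GFP replicate 3 alone, 4 members passed the adjusted p, namely BUB1, MAD2L1 and CDC20 higher, against 5.07% of all tested genes, and MYBL2 lower, against 7.02%.

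**Figure D1:**
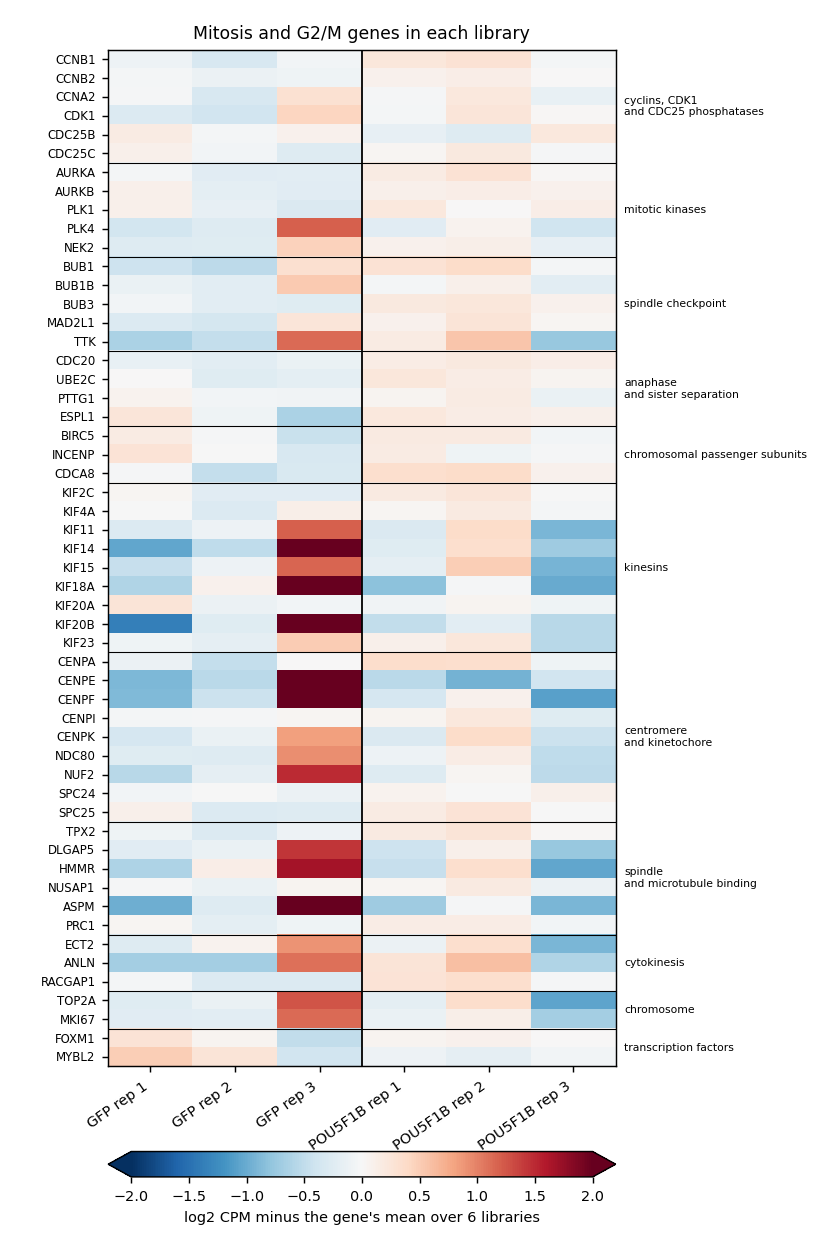
Colours give the log2 CPM of each of the 54 genes in each of the 6 libraries, minus the gene's mean over the 6, with genes in rows by role and the GFP and POU5F1B libraries to the left and right of the black line. GFP replicate 3 was the highest library for 24 genes, most of them kinesins, kinetochore and spindle genes, while POU5F1B replicate 2 was the highest for 19.

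Among the cyclins, CDK1 and the CDC25 phosphatases, CCNB1 had the largest fold change. CCNB1, cyclin B1, measured 263, 227 and 270 CPM in GFP replicates 1, 2 and 3 and 328, 343 and 275 CPM in the POU5F1B replicates. All POU5F1B libraries were above all GFP libraries, but replicate 3 of both groups met at nearly the same value, and the log2 fold change was 0.31 ± 0.13 (SE, adjusted p = 0.411 by limma). CDK1 was at 119, 111 and 195 CPM in GFP and 140, 170 and 146 CPM in POU5F1B cells, and CCNA2, the S and G2 phase cyclin A2, at 139, 112 and 174 against 138, 162 and 127 CPM. For both genes the groups overlapped, and GFP replicate 3 was the highest of the 6 libraries. Of the 6 genes with these roles, 5 had a fold change above 0, with a median of 0.14. With replicates 1 and 2 alone, CCNB1 (0.45 ± 0.086, SE) and CDK1 (0.41 ± 0.10) passed the adjusted p upwards, at 0.002 and 0.0095 by limma. CDC25B, an activator of CDK1, passed it downwards, at -0.28 ± 0.092 (SE, adjusted p = 0.038 by limma).

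Among the mitotic kinases, AURKA, which matures the centrosomes and the spindle, was at 250, 220 and 222 CPM in GFP and 289, 314 and 261 CPM in POU5F1B libraries. The groups did not overlap, and the log2 fold change was 0.32 ± 0.12 (SE, adjusted p = 0.353 by limma), or 0.35 ± 0.086 (adjusted p = 0.0089) in replicates 1 and 2. AURKB, the kinase of the chromosomal passenger complex, was at 129, 106 and 103 against 129, 133 and 128 CPM, and its POU5F1B libraries agreed more closely with each other than its GFP libraries did. PLK1, which acts from mitotic entry to cytokinesis, was at 115, 95.6 and 87.5 against 123, 108 and 118 CPM. For both AURKB and PLK1 the highest GFP library, replicate 1, lay above at least 1 POU5F1B library. PLK4, the kinase of centriole duplication and the member of this role with the largest change, was at 22.1, 23.6 and 65.0 against 24.2, 29.8 and 21.4 CPM. Its log2 fold change was -0.37 ± 0.43 (SE) with GFP replicate 3 and 0.11 without it.

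Among the spindle checkpoint genes, the replicate 3 libraries often had the opposite order to those of replicates 1 and 2. Orders by replicate number only describe the values, since the numbers were not taken to pair the libraries. BUB1, a checkpoint kinase of the kinetochore, was at 138, 129 and 229 CPM in GFP and 224, 237 and 180 CPM in POU5F1B libraries. In replicates 1 and 2 the POU5F1B level was well above the GFP level, and in replicate 3 it was below, so that the groups overlapped and the log2 fold change was 0.41 ± 0.24 (SE, adjusted p = 0.533 by limma) with all libraries against 0.78 ± 0.083 with replicates 1 and 2. MAD2L1, which encodes the checkpoint protein MAD2, had the same order, at 96.97, 91.4 and 138 against 124, 140 and 120 CPM. BUB3, the partner that loads BUB1 on the kinetochore, was at 228, 205 and 200 against 270, 279 and 252 CPM. It was the checkpoint gene whose groups did not overlap, with a log2 fold change of 0.34 ± 0.10 (SE, adjusted p = 0.305 by limma) and nearly the same value, 0.33 ± 0.082 (adjusted p = 0.0089), in replicates 1 and 2. With replicates 1 and 2 alone, 4 of the 5 checkpoint genes (BUB1, BUB3, MAD2L1 and TTK) passed the adjusted p upwards. Of all tested genes, 14.1% did so in that fit.

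**Figure D2:**
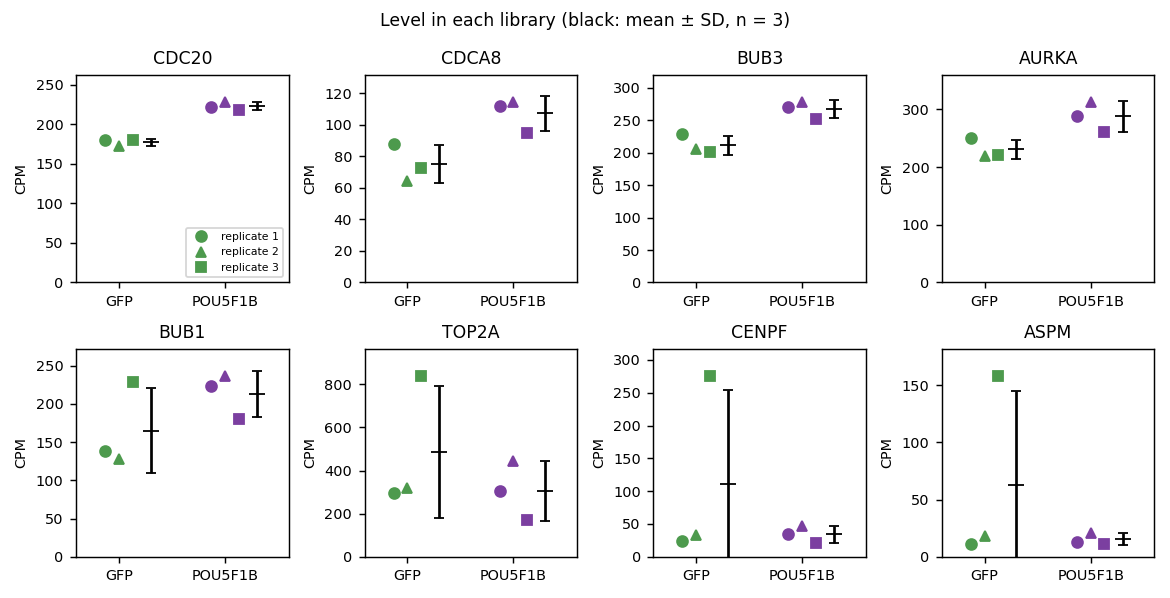
Points give the CPM of 8 genes in each library on a linear axis from 0, circles, triangles and squares for replicates 1, 2 and 3, with the mean and SD in black (n = 3; bars that reach below 0 end at the axis). CDC20, CDCA8, BUB3 and AURKA have groups without overlap, and in TOP2A, CENPF and ASPM the highest library is GFP replicate 3, which in BUB1 is second to POU5F1B replicate 2.

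CDC20, which activates the anaphase-promoting complex, had the smallest p-value of the 54 genes. It lies at chr1:43824652-43828874 (GRCh37, plus strand). Its level was 180, 172 and 180 CPM in GFP and 221, 228 and 218 CPM in POU5F1B libraries, a mean of 177 ± 4.65 against 223 ± 5.22 CPM (SD, n = 3). The gap between the groups was several times the spread within either, and the log2 fold change was 0.33 ± 0.092 (SE, adjusted p = 0.285 by limma), or 1.26-fold on the linear scale. In the first 2 replicates alone it was 0.34 ± 0.079, with an adjusted p of 0.0061. After the correction for GC and length given below, the log2 fold change of CDC20 was 0.19, and CDC20 no longer passed the unadjusted limit. PTTG1, securin, was at 223, 205 and 202 against 221, 238 and 194 CPM, so that its groups overlapped. All 4 genes of this role had a fold change above 0, with a median of 0.30.

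The 3 chromosomal passenger subunits other than AURKB, which sit on centromeres and then at the midzone, all had a fold change above 0 with all libraries. CDCA8, borealin (ENSG00000134690, chr1:38158153-38175391, GRCh37, plus strand), had the largest of any member. It was at 88.0, 64.3 and 72.4 CPM in GFP and 112, 115 and 94.7 CPM in POU5F1B libraries, without overlap. Its log2 fold change was 0.52 ± 0.16 (SE, adjusted p = 0.299 by limma), with a 95% interval from 0.15 to 0.89, and it was 0.58 ± 0.13 (adjusted p = 0.0042) in replicates 1 and 2. BIRC5, survivin, was at 166, 146 and 108 against 167, 167 and 142 CPM, with GFP replicate 3 the lowest library of all 6. Its log2 fold change was 0.19 with all libraries and 0.012 without GFP replicate 3. That of INCENP was 0.034 with all libraries and -0.13 without GFP replicate 3.

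The kinesins showed the opposite picture to the anaphase genes, with 7 of 9 below 0 and a median of -0.40. The median was 0.049 without GFP replicate 3 and -0.048 without POU5F1B replicate 3, so it rested on both libraries. KIF11, the plus-end motor that pushes spindle poles apart, was at 52.6, 59.7 and 147 CPM in GFP and 52.5, 82.4 and 33.9 CPM in POU5F1B libraries. KIF18A, which dampens chromosome oscillation and had the lowest fold change of the 54 genes, was at 7.33, 11.96 and 58.6 against 6.29, 11.0 and 5.49 CPM. Its log2 fold change of -1.24 ± 0.82 (SE, adjusted p = 0.588 by limma) was -0.22 ± 0.28 with replicates 1 and 2. KIF20A, a motor of the central spindle, was at 224, 172 and 180 against 178, 194 and 175 CPM and did not carry the high value. Over replicates 1 and 2 the kinesins' median was 0.29 and 7 of 9 were above 0.

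At the centromere and kinetochore the values split by gene. CENPA, the histone variant that marks the centromere, was at 40.7, 31.8 and 44.2 CPM in GFP and 56.2, 55.7 and 41.5 CPM in POU5F1B libraries. CENPF, a large outer kinetochore protein, was at 23.8, 32.6 and 276 against 34.8, 47.0 and 20.6 CPM, with GFP replicate 3 far above the other 5 libraries. CENPE, the kinetochore motor, was at 3.45, 4.50 and 66.6 against 4.48, 3.34 and 4.995 CPM. The same library thus stood out in CENPF and CENPE and far less in CENPA. NDC80, which binds microtubules, lay between, at 45.2, 44.9 and 102 against 50.0, 59.3 and 37.7 CPM. The median of the 9 genes was -0.24 with all libraries and 0.24 with replicates 1 and 2, where 8 of 9 were above 0. In the latter fit CENPA (0.63 ± 0.13, SE) and CENPF (0.50 ± 0.17) passed the adjusted p upwards, against 14.1% of all tested genes.

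TPX2, which brings AURKA to the spindle, was at 469, 413 and 466 CPM in GFP and 563, 592 and 505 CPM in POU5F1B libraries. Its groups did not overlap, with a log2 fold change of 0.30 ± 0.11 (SE, adjusted p = 0.353 by limma), or 0.38 ± 0.078 (adjusted p = 0.0032) in replicates 1 and 2. ASPM, which acts at the spindle poles, was at 10.9, 18.0 and 158 against 12.98, 21.1 and 11.3 CPM, and its log2 fold change moved from -1.09 ± 1.04 (SE) with all libraries to 0.20 ± 0.25 with replicates 1 and 2. The genes share a role, but the spread between libraries was far wider in ASPM than in TPX2.

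In cytokinesis, RACGAP1, a subunit of centralspindlin, was at 188, 159 and 159 CPM in GFP and 232, 242 and 189 CPM in POU5F1B libraries, without overlap. Its log2 fold change was 0.39 ± 0.14 (SE, adjusted p = 0.353 by limma), or 0.44 ± 0.092 (adjusted p = 0.0032) in replicates 1 and 2. ECT2, the activator of RhoA at the midzone, was at 93.9, 118 and 209 against 103, 141 and 59.5 CPM. ANLN, the actin-binding protein anillin of the contractile ring, was at 168, 169 and 578 against 324, 410 and 178 CPM. In replicates 1 and 2 ANLN was higher with POU5F1B, and the replicate 3 libraries had the reverse order. The proliferation marks TOP2A and MKI67, which encode topoisomerase II alpha and Ki-67, had that reverse order too. TOP2A was at 296, 320 and 839 against 305, 446 and 169 CPM, and MKI67 at 310, 314 and 797 against 333, 397 and 228 CPM. Their log2 fold changes were -0.60 ± 0.49 and -0.45 ± 0.40 (SE), and 0.24 ± 0.13 and 0.20 ± 0.087 with replicates 1 and 2.

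The 2 transcription factors of the group were not highest in GFP replicate 3. MYBL2 was at 302, 256 and 164 CPM in GFP and 199, 189 and 206 CPM in POU5F1B libraries, and was the member with the lowest GFP replicate 3 value relative to its partners. In replicates 1 and 2 its log2 fold change was -0.53 ± 0.093 (SE, adjusted p = 0.0011 by limma), and with all libraries it was -0.24 ± 0.22. FOXM1 was at 358, 307 and 210 against 306, 313 and 297 CPM, with a log2 fold change of 0.10 ± 0.20 (SE) with all libraries and -0.11 ± 0.086 with replicates 1 and 2. Neither estimate for FOXM1 reached an adjusted p under 0.05.

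**Figure D3:**
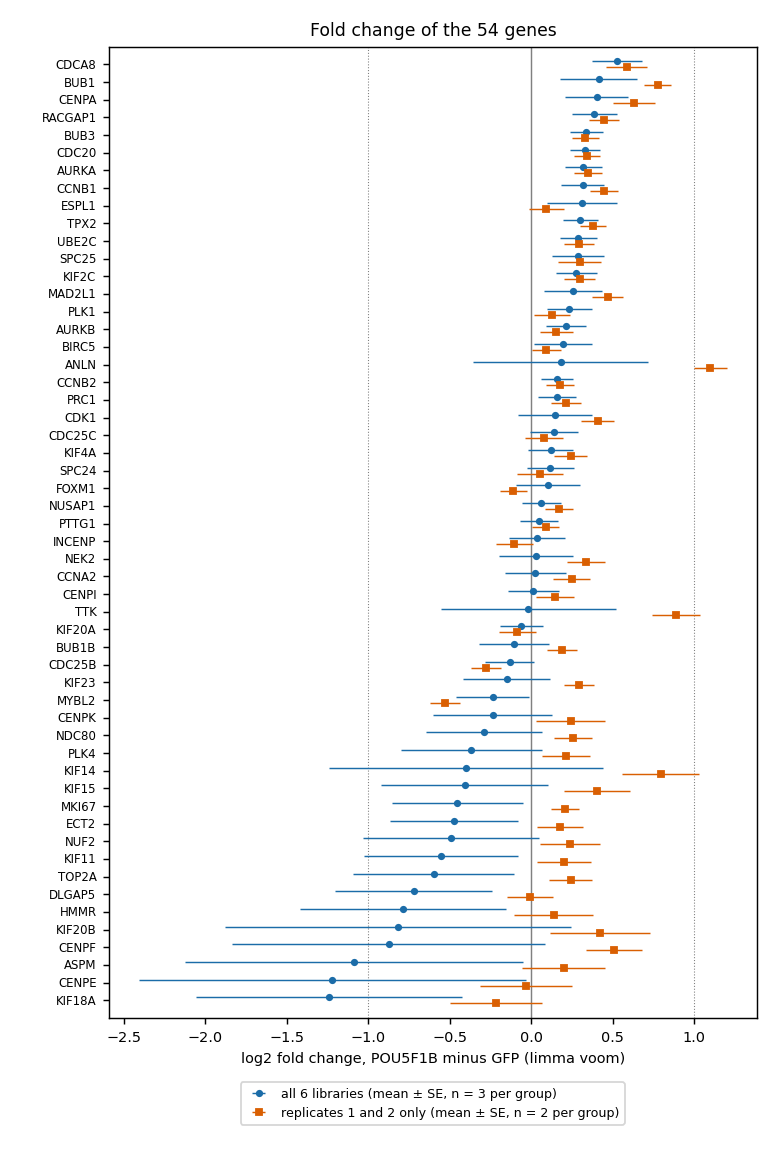
Each gene's log2 fold change between POU5F1B and GFP cells is drawn with its standard error, in blue for all 6 libraries (n = 3 per group) and in orange for replicates 1 and 2 only (n = 2 per group), with dotted lines at a 2-fold change. The blue bars are widest for CENPE, KIF20B and ASPM, and only ANLN passes the right dotted line in orange.

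Precision differed widely among the members. Standard errors ran from 0.092 for CDC20 to 1.19 for CENPE, with a median of 0.195, against 0.241 over all tested genes. The 95% interval of 35 members lay within a 2-fold change in either direction, so that a 2-fold change lay outside the interval for those genes. The interval reached a 2-fold rise for 7 genes and a 2-fold fall for 19. The 8 genes whose interval did not include 0 were those past the unadjusted limit, namely CDC20, CDCA8, BUB3, RACGAP1, TPX2, AURKA, UBE2C and CCNB1.

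GFP replicate 3 did not shift all members alike. It was above both other GFP libraries in 32 of the 54 genes, against 47.6% of all tested genes, and below both in 12, against 43.5%, and it was more than 2-fold higher in 18 members, against 12.3% of all tested genes. The shift, as log2 CPM in replicate 3 minus the mean of replicates 1 and 2, was 4.02 for CENPE, 3.67 for KIF20B, 3.48 for ASPM, 3.30 for CENPF and 2.96 for KIF14. It was -0.76 for MYBL2, -0.70 for ESPL1 and -0.66 for FOXM1. These genes are named by their place in this order. POU5F1B replicate 3 lay below both other POU5F1B libraries in 47 of the 54 genes, against 39.1% of all tested genes, and above both in 4.

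Genes with long, AT-rich transcripts made up the top of that order. For the 19 members whose canonical transcript had under 40% GC, the median shift of GFP replicate 3 was 1.61, and 4 of them were higher in POU5F1B cells with all libraries. For the 35 members at or above 40% GC the median shift was -0.0046, and 27 were higher. In all tested genes the medians were 0.76 and -0.066. Across the 54 members the shift had a Pearson correlation of -0.70 with GC content and 0.53 with log2 transcript length, and across 13906 tested genes -0.38 and 0.12. Genes are not independent replicates, all points share the same 3 libraries, and these values are a description. In replicates 1 and 2 the GC classes of the members lay close together, with medians of 0.24 and 0.21. There 16 of 19 and 30 of 35 genes were higher. Over all tested genes the classes still differed in that fit, with medians of 0.13 under 40% GC and -0.033 at or above it. Of these genes, 1361 of 2105 and 5521 of 11801 were higher. After a correction of each library for GC and length, chosen after the data had been seen, 28 members were above 0. At an unadjusted p under 0.05, 7 were higher and 1 lower, against 6.99% and 8.81% of all tested genes. Of the higher members, CCNB1, AURKA, BUB3, CDCA8 and RACGAP1 passed this limit with and without the correction. CDC20, UBE2C and TPX2 passed it only without the correction, and BUB1 and MAD2L1 only with it. The log2 fold change of CDC20 went from 0.33 to 0.19, and that of MAD2L1 from 0.26 to 0.47.

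**Figure D4:**
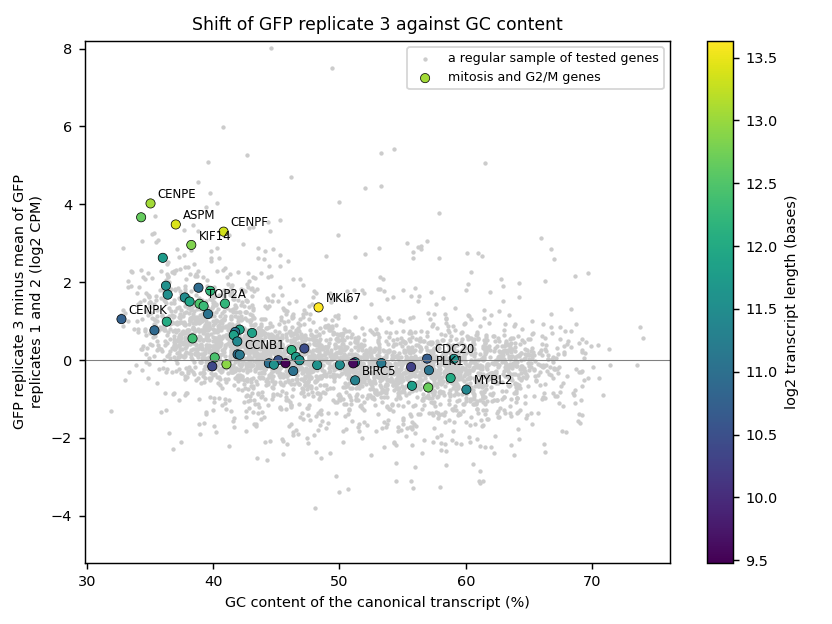
The vertical axis gives the log2 CPM of GFP replicate 3 minus the mean of GFP replicates 1 and 2, the horizontal axis the GC content of the canonical transcript in percent, the colour of the 54 members their log2 transcript length, and grey points a regular sample of the tested genes. Members under 40% GC have a median shift of 1.61 and the others of -0.0046, with CENPF the highest of the latter at 3.30.

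Per length of exon, with all annotated exons of a gene joined, UBE2C and TPX2 had the highest levels in GFP cells. They were at 127 ± 11.8 and 125 ± 8.70 CPM per kb (SD, n = 3). PTTG1 (106), CCNB1 (104), CDC20 (88.1) and MYBL2 (86.7 CPM per kb) followed. CENPE, at 2.502 CPM per kb, was the lowest, below KIF14 at 3.75. Of all neighbours in this order, only TPX2 and PTTG1, and CCNB1 and CDC20, had ranges over the 3 GFP libraries that did not overlap, so the order of most neighbours does not go beyond their spread. CENPE and KIF14 are also among the genes furthest above their partners in GFP replicate 3. The order also depends on the length used. Joined exons and canonical transcript measured 1975 and 715 bases for PTTG1, 1286 and 777 for UBE2C, and 3605 and 3473 for TPX2.

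Other genes of the cell cycle, from lists of known complexes, gave a scale for the 54. Of 17 subunits and partners of the anaphase-promoting complex (its core subunits, the coactivator FZR1, the enzyme UBE2S and the inhibitor FBXO5), 7 were above 0, with a median log2 fold change of -0.066 with all libraries and -0.015 with replicates 1 and 2. None passed the unadjusted limit, and the smallest p belonged to CDC23 (-0.21 ± 0.11, SE) and CDC16 (-0.30 ± 0.17). Of 17 condensin and cohesin genes 6 were above 0, with a median of -0.25 that was 0.12 with replicates 1 and 2. NCAPD2, a condensin subunit, had 0.33 ± 0.14 (SE) and PDS5B, a cohesin regulator, -0.73 ± 0.38, and 0 genes of this list passed the unadjusted limit. Other kinetochore subunits (24, of which 15 above 0) had a median of 0.035 with all libraries and 0.033 with replicates 1 and 2, led by BOD1 (-0.31 ± 0.13, SE) and CENPN (0.22 ± 0.14), with 0 past the unadjusted limit. Of 27 other spindle and cytokinesis genes 14 were above 0, with a median of 0.047 with all libraries and 0.21 with replicates 1 and 2. HAUS2, an augmin subunit, was the 1 past the unadjusted limit (0.48 ± 0.15, SE, adjusted p = 0.323 by limma, and 0.62 ± 0.13, adjusted p = 0.0029, in replicates 1 and 2), followed by KIF22 (0.26 ± 0.11).

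Among the regulators of this programme, 1 gene passed the unadjusted limit. Of 13 DREAM, MuvB and NF-Y subunits 5 were above 0, the median was -0.076 with all libraries and 0.022 with replicates 1 and 2, and 0 passed the unadjusted limit, with LIN54 (-0.37 ± 0.24, SE) and E2F4 (0.14 ± 0.10) first by p. Of 14 brakes on G2/M and p53 targets 8 were above 0, the median was 0.076 with all libraries and 0.18 with replicates 1 and 2, and 1 passed the unadjusted limit. That was CDKN2A, which encodes the inhibitor p16, at 38.6, 34.8 and 27.3 CPM in GFP and 21.6, 17.8 and 22.6 CPM in POU5F1B libraries. Its groups did not overlap, and its log2 fold change was -0.69 ± 0.19 (SE, adjusted p = 0.285 by limma), or -0.90 ± 0.15 (adjusted p = 0.00061) in replicates 1 and 2. CDKN1B, the inhibitor p27, had -0.28 ± 0.14 (SE).

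The genes of DNA replication and the G1/S step had the highest median of the lists with all 6 libraries. Of 33 tested, 23 were above 0, the median log2 fold change was 0.13 with all libraries and 0.13 with replicates 1 and 2, 7 were higher at the unadjusted limit (against 6.07% of all tested genes) and 11 had groups without overlap in that direction (against 10.2%). None passed the adjusted limit. MCM6, a subunit of the replicative helicase, was at 227, 225 and 242 CPM in GFP and 350, 388 and 341 CPM in POU5F1B libraries, with a log2 fold change of 0.63 ± 0.10 (SE, adjusted p = 0.185 by limma), or 0.69 ± 0.078 (adjusted p = 4.7e-05) in replicates 1 and 2. CHAF1B, of the chromatin assembly factor, was at 55.1, 54.4 and 58.0 against 97.3, 102 and 81.7 CPM (0.74 ± 0.13, SE, adjusted p = 0.185 by limma, or 0.85 ± 0.096, adjusted p = 4.3e-05, in replicates 1 and 2). In both genes GFP replicate 3 lay close to its partners, unlike in TOP2A or CENPF. This did not hold for the list as a whole. Its median log2 CPM, minus each gene's mean over the libraries, was -0.21 in GFP replicate 3, the lowest library. It was 0.025 and -0.093 in GFP replicates 1 and 2. With replicates 1 and 2 alone, 19 of the 33 genes were above 0. The difference between this list and the mitotic genes was not tested.

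**Figure D5:**
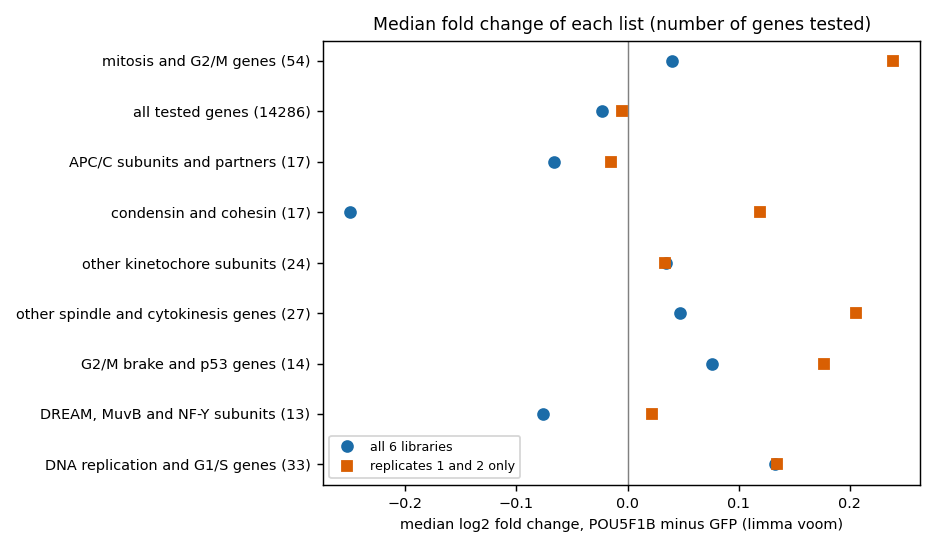
Points give the median log2 fold change between POU5F1B and GFP cells of each gene list, with the number of genes tested in brackets, as blue circles for all 6 libraries and orange squares for replicates 1 and 2 only. The mitosis and G2/M genes move from 0.040 to 0.24 between the 2 settings, condensin and cohesin from -0.25 to 0.12, and the DNA replication and G1/S genes stay at 0.13.

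Some members have copies by name or overlap other genes. Per the study's methods, only reads that mapped uniquely were counted. A listed copy, such as a processed pseudogene, was found for 15 members, and 2 of the 23 copies held more than 1% of the counts of gene and copy together, CDC20P1 and UBE2CP5. An exon of 15 members overlaps a gene on the opposite strand, and in 8 of them that gene had at least 5% of the member's counts. On the same strand, exons of BUB1B, CENPA and NUSAP1 overlap another listed gene, for CENPA the gene SLC35F6 with 138 shared bases and 3536 counts, against 3223 of CENPA. The 8 with an opposite-strand partner were ANLN, CCNA2, CDC25C, FOXM1, KIF4A, KIF20A, NUSAP1 and SPC24. Their counts are uncertain to that extent, since the strand setting and the treatment of overlapping genes in the counting are not given in the sources used here.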

How the data were processed

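The authors deposited whole-number read counts per gene, 1 table for each of the 6 libraries, not normalized. Per the study's methods, reads were mapped to hg19 with HISAT2 and counted with featureCounts on an annotation of genes and transposable elements. The strand setting and annotation release are not given in the sources used here.

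Groups and replicate numbers came from the titles. The filterByExpr filter of edgeR 4.0.16 kept 14286 genes, and libraries were scaled by TMM. The test was limma 3.58.1 voom in R 4.3.3, without a block, two-sided, with p-values adjusted by Benjamini-Hochberg over those genes, because the study states this method and its limits. Levels are CPM, and shifts between libraries are on log2 CPM with a prior count of 2. The alternatives were edgeR's quasi-likelihood test, DESeq2 1.42.0, sample quality weights, other scalings and filters, a replicate block, replicates 1 and 2 only, each library left out, and, chosen after the data had been seen, a correction for GC and length (natural splines with 5 degrees of freedom). The limits of 40% GC and of 4000 bases were also set then. Replicates were compared with edgeR's coefficient of variation, and no 2 libraries agreed within sampling noise. The fits were also run on simulated counts with planted changes larger than any member's with all 6 libraries. That run cannot show whether changes of the members' size would be found.

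Depth was between 10767947 and 12787637 counts per library. A floor of 3 counts is 0.229 to 0.278 CPM, and intervals of shares are Wilson intervals, all for counting error only.

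The members and gene lists were chosen with earlier results of these data known, so no list was tested. Genes given in full were 23 that are named for their role, the 5 members with the smallest p-value, the member with the largest fold change in each role, and in each other list the 2 genes with the smallest p-value. Of 215 listed names 213 were matched to an identifier. Coordinates of genes are GRCh37 and 1-based, and promoters are from RefSeq on GRCh38.p14.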

Additional observations from a re-analysis of the deposited data

How the results depend on the processing

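The median log2 fold change of the 54 genes was 0.040 as reported and 0.24 with replicates 1 and 2 only, and leaving out each library in turn gave -0.019 to 0.13. The number of members at an adjusted p under 0.05 was 0 as reported and 1 with DESeq2 (CDC20, higher, against 1.3% of all tested genes). It was 15 with sample quality weights (14 higher and 1 lower, against 13.8% and 14% of all tested genes). With replicates 1 and 2 only it was 21 (19 higher and 2 lower, against 14.1% and 15.5%). With 1 library left out it was 0 to 4, where 4 is the value without GFP replicate 3. In that fit 5.07% of all tested genes passed upwards and 7.02% downwards. Past both limits the number of members was 0 as reported, 1 with replicates 1 and 2 only and 0 to 0 with 1 library left out. The number of members higher in POU5F1B cells was 31, and 25 to 42 with 1 library left out. The replicate numbers did not mark shared batches in the labels, and the correlations of deviations of same-numbered libraries were 0.24, 0.088 and 0.16, so the numbers were not taken to pair the libraries. The fit with the replicate block gave 0 members at an adjusted p under 0.05, 0 past both limits, 31 higher and a median of 0.038. Members not given in full also changed sign with replicates 1 and 2 only, such as KIF14 (from -0.40 to 0.79) and KIF20B (from -0.82 to 0.42). The following are changes of sign among the members given in full. With replicates 1 and 2 only the log2 fold change was 0.20 for ASPM, 0.50 for CENPF, 0.18 for ECT2, -0.11 for FOXM1, 0.20 for KIF11, 0.20 for MKI67, 0.26 for NDC80, 0.21 for PLK4 and 0.24 for TOP2A. With sample quality weights it was 0.20 for CENPF, -0.069 for FOXM1, 0.058 for MKI67, 0.14 for NDC80 and 0.093 for PLK4. With the GC and length correction it was -0.017 for FOXM1 and -0.029 for PTTG1, and with the replicate block added -0.019 and -0.027. With 1 library left out it ranged from -1.83 to 0.024 for ASPM, -0.12 to 0.17 for CCNA2, -1.96 to 0.087 for CENPE, -1.53 to 0.18 for CENPF, -0.13 to 0.27 for FOXM1, -0.12 to 0.055 for KIF20A, -0.48 to 0.082 for NDC80, -0.63 to 0.11 for PLK4 and -0.020 to 0.13 for PTTG1. The cause of these changes was not tested. CENPE had only 36 to 60 counts and KIF20B 46 to 113 in the 5 libraries other than GFP replicate 3, and the part of depth was not tested.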
